A study of Homo sapiens with 10 samples.

Results

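The DNA replication and mitosis genes described here are 54 protein-coding genes that dividing cells use to copy and to separate their chromosomes, out of the 12125 genes of the expression table. They were taken by symbol from a named list. All 54 were found, each on 1 row of the table. The rule names genes and uses no measured value, although the list was drawn up with earlier results of these data known. The list divides into 22 replication genes, 29 mitotic genes and 3 transcription factors that regulate cell cycle genes. CDC25A, a phosphatase that acts before S phase as well as at mitosis, was counted as mitotic.

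The human embryonic stem cell (hESC) line H1 was taken through a stepwise serum-free protocol towards hepatocyte-like cells, and bulk RNA was sequenced on 10 days with 1 library per day. Day 0 is the untreated culture. Days 1, 2 and 3 were collected in Activin A at 100 ng per ml, days 5 and 7 in 30 ng per ml FGF4 and 20 ng per ml BMP2, and days 9 and 11 in HGF and KGF at 20 ng per ml each. The labels assign days 13 and 21 to Oncostatin M (OSM) at 20 ng per ml, although by the stated length of the steps day 13 closes the HGF and KGF step. Among the sequenced samples the sequence of media is the only treatment, and none is a culture kept without the factors, so time in culture and medium cannot be told apart.

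The deposited values are scores normalized for GC content and rounded, not read counts. The sums of the 10 libraries lay within 1.36% of each other, the depth of each library is not known from the files, the methods of the study give only an average over samples that is low for bulk RNA sequencing, and a value tells the place of a gene within its library. The members took values from 2 to 1555, and none was at 0 in any library or among the 100 highest genes of a library. Each change was taken on log2(value + 1), where the added 1 makes the changes of low genes look smaller. A gene was counted as higher or lower on a later day at a difference of at least 2-fold with a larger value of at least 50. Without replicates these counts carry no p-value. Between days 9 and 11, the successive libraries that differed least, the log2 differences of 8444 genes had a standard deviation of 0.36.

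Markers of the stages were checked by summed values. Between days 0 and 21 the sum of 8 pluripotency genes went from 16449 to 194. The sum of 8 definitive endoderm (DE) genes was 24 in the stem cells and 22784 at day 3, of which CER1 held 18734. For 11 liver genes it was 203, 41351 and 95963 on days 3, 7 and 21. The highest value of every library was 18734, and more than 1 gene stood at it. Among them were AFP, TTR, APOB and SERPINA1 on day 21 and the stromal gene COL1A2 on days 13 and 21. Summed values are therefore bounded and carried largely by single genes.

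A dividing cell loads the ring-shaped MCM helicase onto DNA in G1, fires it in S phase and lets polymerases copy both strands, then drives mitosis with cyclin-dependent and Aurora kinases while the spindle checkpoint holds the chromosomes until they are attached. Many replication genes are transcribed at the G1/S boundary under E2F factors. Many mitotic genes follow in G2 under FOXM1, B-MYB and the MuvB complex. hESCs divide fast and with a short G1, whereas hepatocytes of the adult liver are mostly quiescent.

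Over the whole course, all 54 genes were lower at day 21 than at day 0, as were 53.4% of all genes, and day 21 was the lowest of the 10 libraries for each of them. Among the 10746 genes that reached a value of 50, 28.3% had their lowest value at day 21. For days 0 and 21 the median log2 change of the 54 genes was -3.38, ranging from -5.50 for BUB1B to -1.06 for CENPA, and the median of all genes was -0.12. Of the 52 members that could be counted, 52 were at least 2-fold lower, against 26.5% of all genes tested, and 50 were at least 4-fold lower, against 11.5%. CENPA and GMNN were the exceptions to the stricter limit. No member was 2-fold higher, against 23.9% of all genes. In this bulk RNA, fewer dividing cells and less of these transcripts per dividing cell cannot be told apart.

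The way down was not even. The highest value of the course lay on day 0, 1 or 2 for 53 of the 54 genes, against 39.0% of all genes that reached a value of 50. Day 1 held the peak of 12 replication and 14 mitotic genes, where the equal highest values of GMNN and of POLE2 were counted at the earlier day. The share of all genes was not taken for day 1 alone. A trough followed at day 7, then a higher level at days 9 to 13, and then the lowest values at day 21. Expressed as the median log2 change from day 0, the replication genes stood on days 1, 3, 7, 11, 13 and 21 at 0.27, -0.44, -1.65, -1.22, -1.44 and -3.31. The mitotic genes stood at 0.20, -0.48, -2.15, -0.70, -0.92 and -3.47 on the same days. The mean profiles of both lists had a Pearson r of 0.961 over the 10 libraries, a description of a shared time course and not a test.

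**Figure D1:**
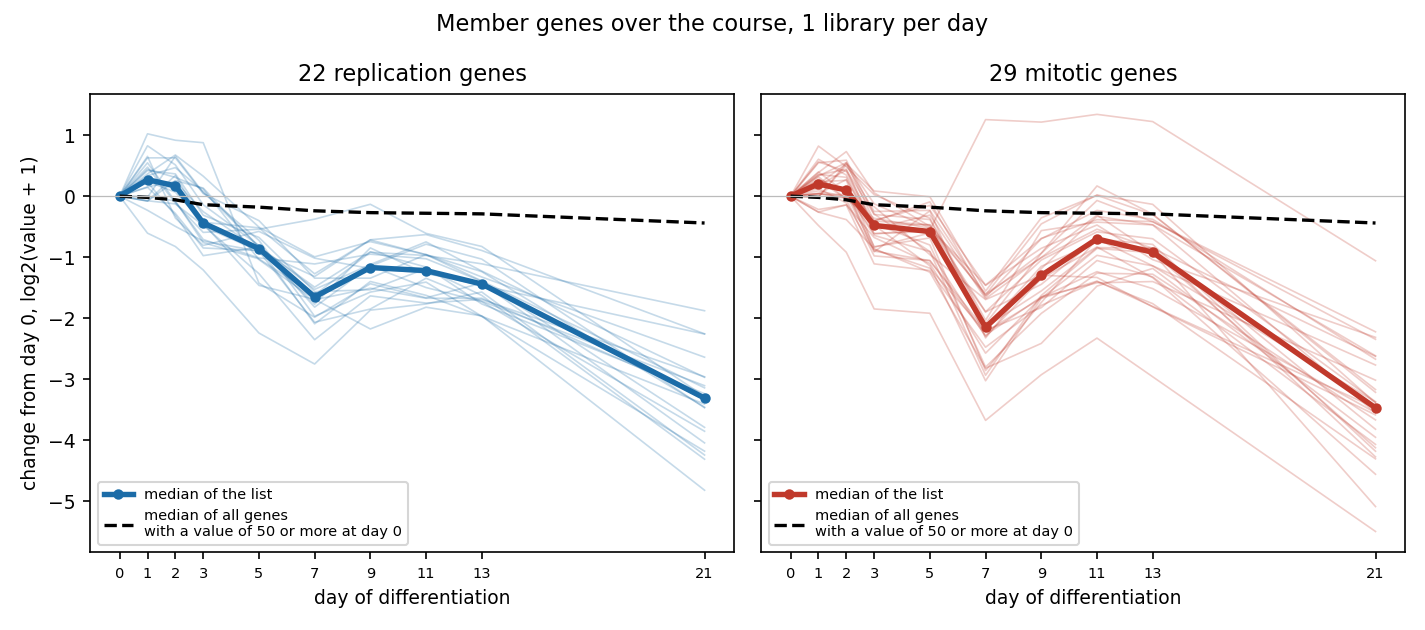
Change from day 0 in log2(value + 1) against the day of differentiation, for the 22 replication genes (left) and the 29 mitotic genes (right). Thin lines are single genes, the thick line with points is the median of the list and the dashed black line the median of all genes with a value of at least 50 at day 0. Both medians dip at day 7, the mitotic median returns to -0.70 at day 11 while the replication median stays at -1.22, and both end below -3. The single mitotic gene above 1 from day 7 to day 13 is CENPA.

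The usual proliferation markers show the course gene by gene. MKI67, the gene of the Ki-67 antigen that coats mitotic chromosomes, had values of 522, 589, 703 and 424 at days 0, 1, 2 and 3, of 400 and 122 at days 5 and 7, of 272, 497 and 390 at days 9, 11 and 13, and of 111 at day 21. TOP2A, the topoisomerase that untangles sister chromatids, had values of 1087, 1214, 1156, 612, 676, 149, 324, 668, 628 and 59 over the 10 days in order. Both genes were low at day 7, and at day 11 MKI67 was back at 95.2% of its day 0 value and TOP2A at 61.5%.

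CDK1, the kinase that drives entry into mitosis, had 735, 876, 790, 390, 622, 146, 322, 584, 531 and 119 over the same days. Its partner cyclin B1, CCNB1, had 518, 530, 527, 282, 228, 110, 162, 264, 234 and 49. For both, the values of days 11 and 13 lay above those of days 7 and 9 and below those of days 0 to 2. PCNA, the sliding clamp that holds DNA polymerases on the template, had 474, 450, 434, 340, 196, 92, 152, 140, 146 and 60. The clamp gene also had its dip at day 7 but showed no second step up after day 9, and it stood at 29.5% of day 0 at day 11.

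From day 0 to day 3, the Activin A step, the members were little changed by the 2-fold limit. Of 52 members tested, 0 were at least 2-fold higher and 3 lower, against 11.1% and 9.07% of all genes. The 3 were BUB1B and MAD2L1, both of the spindle checkpoint, with log2 changes of -1.85 and -1.11, and CDT1, which loads the MCM helicase, with -1.21. The median change was -0.47, and it came late in the step. At day 2 the median change from day 0 was still 0.11, and from day 2 to day 3 each of the 54 genes was lower, with a median of -0.61, when 49.7% of all genes were lower and their median was 0.00. Of 53 members tested, 2 were 2-fold lower, against 1.08% of all genes. Values of day 3 exceeded those of day 0 for 7 of the 22 replication genes, namely MCM6, FEN1, RFC3, GINS1, RRM1, CDC6 and POLE2. MCM6 was farthest, at a log2 difference of 0.88, and POLE2 went only from 32 to 33. In the mitotic list 3 of 29 genes did so, KIF23, ANLN and NUSAP1, by at most 0.08. Among all 12125 genes 5542 did so, a larger share than in either list.

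From day 3 to day 7, in FGF4 and BMP2, 42 of 51 members were at least 2-fold lower, against 12.8% of all genes, and 1 was higher, against 13.2%. The mitotic genes were lower in 27 of 28 cases and the replication genes in 13 of 21. Median log2 changes were -1.52 and -1.33, and the median of all genes was -0.03. The steepest differences were those of MCM6 (-2.86), BUB1 (-2.55), AURKB (-2.35) and CCNA2 (-2.29). BUB1 and AURKB encode kinases that watch over chromosome attachment, and CCNA2 encodes cyclin A. Within the step, the medians of replication and mitotic members differed in time, with each day resting on 1 library. Between days 3 and 5 the replication median was -0.53 and the mitotic median -0.09, and between days 5 and 7 they were -0.68 and -1.40. The lists of other replication and mitotic genes, given below, did not show the early difference, with -0.35 and -0.30 between days 3 and 5. Between days 5 and 7 those lists had -0.66 and -1.21.

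The trough at day 7 rests on 1 library. The value at day 7 lay below those of days 5 and 9 for 49 of the 54 genes (28 of 29 mitotic, 18 of 22 replication and all 3 transcription factors), against 25.5% of the genes that reached a value of 50. The exceptions were CENPA, MCM2, MCM10, POLA1 and POLE2. Comparing day 5 with day 9 and leaving day 7 aside, the mitotic genes had a median change of -0.57 and the replication genes of -0.27, and 5 of 49 members were 2-fold lower, against 8.41% of all genes. CENPA was the 1 member 2-fold higher, against 10.2%. The same library holds the step up of liver genes, whose summed value was 4060 at day 5, and stromal genes went from 1548 to 5376. Their part in the trough was not tested.

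Replication and mitotic genes differed between days 7 and 11, a pair of days chosen after the trough had been seen. At day 11, 25 of 29 mitotic genes were at least 2-fold higher than at day 7, but only 1 of 17 replication genes, RRM2. Of all genes, 6.20% were that much higher, and of the 47 members tested 27 were, FOXM1 included. No member was 2-fold lower, against 4.32% of all genes. The median log2 change was 1.35 for the mitotic genes and 0.38 for the replication genes, a difference of 0.97. Much of this followed the deeper mitotic dip at day 7. Between days 5 and 11 the medians were -0.09 and -0.38, a difference of 0.29. Over those days 1 of 29 mitotic genes, CENPA, and 0 of 20 replication genes were 2-fold higher, against 11.6% of all genes. TOP2A (2.16), CCNA2 (2.08), MKI67 (2.02) and CDK1 (1.99) were farthest up. The mitotic genes short of the limit on log2(value + 1) were NDC80 (0.99), TTK (0.86), CDC25A (0.36) and CENPA (0.09). NDC80 went from 64 to 128 and the replication gene CDT1 from 44 to 88, so only the added 1 kept these 2 below it. Among the replication genes, MCM2, MCM10 and POLA1 were lower at day 11 than at day 7.

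The separation was also present without the day 7 library. From day 9 to day 11, in the same medium, 28 of 29 mitotic genes and 9 of 22 replication genes were higher, with medians of 0.47 and -0.07, where 45.9% of all genes were higher. A 2-fold difference was reached by 2 mitotic genes and 0 replication genes, against 1.04% of all genes. Measured from day 7 to day 13, the whole HGF and KGF step, 18 of 29 mitotic genes and 1 of 15 replication genes, CDT1, were 2-fold higher. With all 45 members tested the count was 19 higher, against 9.65% of all genes, and 0 lower, against 8.21%. The medians were 1.2 and 0.07, a difference of 1.13. Over these days the summed values of other cell types also moved. From day 7 to day 13, 11 stromal genes went from 5376 to 39491, 8 red blood cell genes of 11 listed from 47 to 5741, and 6 endothelial genes of 8 listed from 389 to 2010. No gene of these lists was at 0 at days 9, 11 or 13. Which cells held the mitotic transcripts was not tested.

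**Figure D2:**
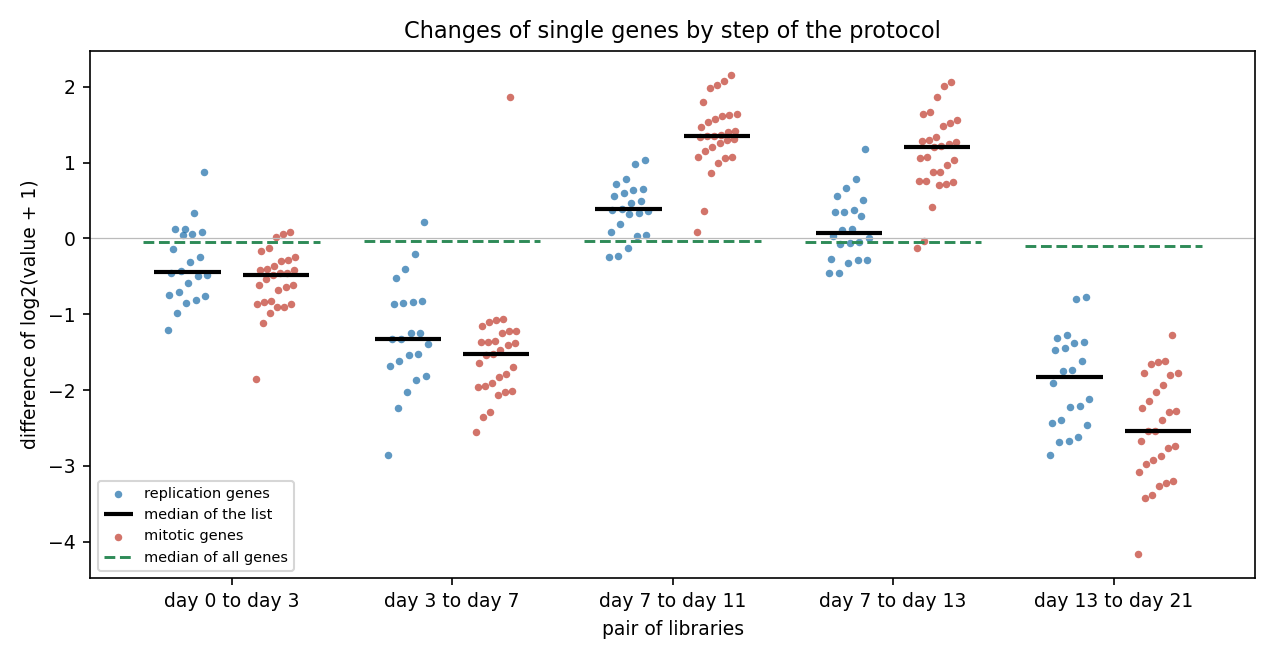
Difference of log2(value + 1) of each replication gene (blue) and each mitotic gene (red) for 5 pairs of libraries. Black bars are the medians of the lists and green dashed lines the median of all genes. From day 7 to day 11 and from day 7 to day 13 the mitotic points lie mostly above the replication points, and from day 13 to day 21 all points lie below 0. CENPA is the single red point near 1.87 from day 3 to day 7.

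From day 13 to day 21, in OSM, all 54 genes were lower, as were 54.2% of all genes. Of the 45 members tested, 44 were at least 2-fold lower, against 9.08% of all genes, and 0 were higher, against 8.57%. GMNN, at -0.77, was the member that stayed short of the limit. The median log2 change was -2.54 for the mitotic and -1.83 for the replication genes, where the median of all genes was -0.10. The deepest differences were those of CCNA2 (-4.16), CDC20 (-3.42), TOP2A (-3.39), TPX2 (-3.26) and KIF11 (-3.22). Between these days the summed value of the liver genes went from 61048 to 95963, that of the stromal genes from 39491 to 42127, and that of the red blood cell genes from 5741 to 2800. Only 3 of 10 macrophage genes were in the table. Their sum went from 83 to 416, and PTPRC was at 0 at day 13. The part of these cells in the lower values was not tested.

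The loading and firing of the helicase is represented by 13 members. Their median log2 change was -3.41 from day 0 to day 21 and 0.33 from day 7 to day 11. Over the latter days 0 of 11 tested genes were 2-fold higher, a count near the 6.2% of all genes. MCM10, which helps to activate the helicase, was farthest down of all replication genes, with values of 112, 106, 142, 82, 40, 34, 24, 31, 28 and 3 over the 10 days. GINS2, a subunit of the active helicase, had 138, 185, 178, 111, 86, 46, 47, 60, 44 and 6. Neither regained its level of day 5 in a later library.

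CDT1, the loading factor that must be removed after S phase, had values of 302, 198, 170, 130, 63, 44, 82, 88, 101 and 15. Its highest value was that of the stem cells, and its values from day 9 to day 13 exceeded those of days 5 and 7. GMNN encodes geminin, the inhibitor of CDT1, and had 260, 260, 246, 153, 127, 84, 137, 132, 120 and 70. At day 21 geminin was at 26.9% of day 0 and CDT1 at 4.97%, so the loading factor was lower by a wider margin than its inhibitor.

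MCM2 to MCM7 are the 6 subunits of 1 ring, yet their transcripts did not keep step. MCM2 had values of 408, 568, 377, 270, 280, 314, 372, 267, 230 and 41. At day 7 it stood at 77% of day 0, where the other subunits stood between 25.1% (MCM6) and 46.2% (MCM7). MCM6 had 383 at day 0 and 779, 724 and 704 at days 1, 2 and 3, and then 142 at day 5, a log2 difference of -2.30 across the change from Activin A to FGF4 and BMP2. Over that change the other 5 subunits differed by between -0.40 and 0.14. By day 21 all 6 were between 6.77% and 11.2% of day 0. Whether the subunits differ from each other beyond library error cannot be tested with 1 library per day.

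**Figure D3:**
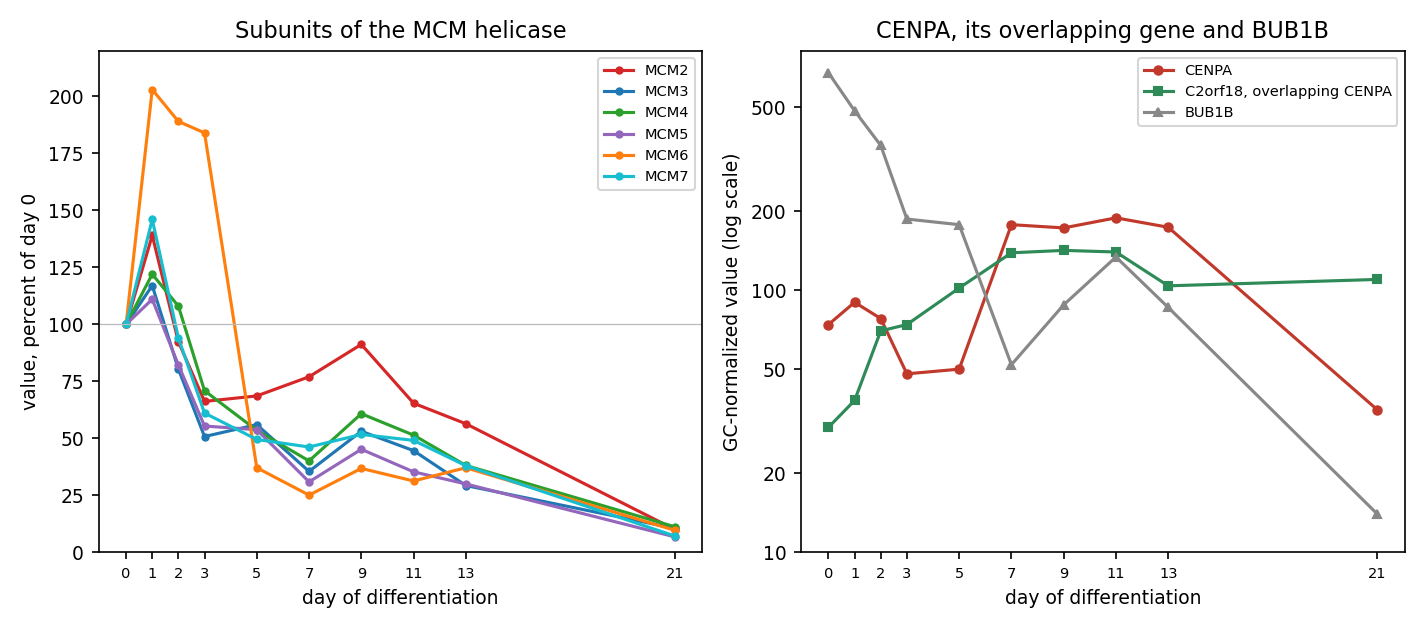
Left, values of MCM2 to MCM7 as a percent of their day 0 value against the day of differentiation, on an axis that starts at 0. MCM6 holds 184% at day 3 and 37.1% at day 5, and MCM2 stays above the others from day 5 to day 13. Right, GC-normalized values on a log scale of CENPA, of C2orf18, whose interval overlaps that of CENPA, and of BUB1B, a mitotic gene with the trough at day 7.

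Between days 0 and 21 the 7 members that serve the replication fork had a median log2 change of -2.96, ranging from -4.18 for the clamp loader gene RFC3 to -2.26 for POLA1, the catalytic subunit of primase-polymerase alpha, and for the ligase gene LIG1. From day 7 to day 11 their median was 0.47 and 0 of 4 tested genes were 2-fold higher, a count near the 6.2% of all genes. RRM2 and RRM1, the subunits of the ribonucleotide reductase that makes deoxynucleotides, had 1.03 and 0.78 over those days, and CDT1 had 0.98.

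Cyclins, mitotic kinases and their switches, 10 genes, had a median of -3.63 on the log2 scale between days 0 and 21. At day 11, 9 of 10 were 2-fold higher than at day 7, against 6.2% of all genes. CCNA2 had values of 305, 402, 316, 195, 162, 39, 98, 168, 160 and 8. The value of day 11 was 4.31-fold that of day 7. CDC25A, the exception, had 62 at day 7 and 80 at day 11. Its sister CDC25C, which activates CDK1 at mitosis, went from 20 to 72.

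The spindle checkpoint and kinetochore genes, 9 in number, held both ends of the mitotic list. BUB1B, the checkpoint kinase BubR1, had values of 676, 484, 357, 187, 178, 52, 88, 134, 86 and 14. It was lower on each day from day 1 to day 7 than on the day before and had the largest difference of all members over the course, 48.3-fold between day 0 and day 21. Kinesin, spindle and cytokinesis genes, 8 in all, were each 2-fold higher at day 11 than at day 7, against 6.2% of all genes. KIF11, the motor that pushes spindle poles apart, had 211, 309, 318, 172, 112, 42, 82, 118, 83 and 8. At day 11, ANLN and TPX2, which serve cytokinesis and spindle assembly, stood at 101% of their stem cell values.

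CENPA, the histone H3 variant that marks the centromere, went against its list. It had values of 74, 90, 78, 48, 50, 178, 173, 189, 174 and 35, so that it was higher at day 7 than at day 5 by 1.81 on the log2 scale when 28 mitotic genes were lower. The table places CENPA on the plus strand of chromosome 2, between 26987157 and 27017457, and C2orf18 starts 5 bases before it on the same strand and shares 16852 bases with it. C2orf18 had 30, 38, 70, 74, 102, 139, 142, 140, 104 and 110, also with its higher values from day 7 on. Reads of genes that overlap on the same strand can be assigned to either, so the values of CENPA are uncertain, and the part of C2orf18 in them was not tested. FEN1 likewise shares 4265 bases with FADS2 on its strand, and CCNA2, KIF20A and ANLN overlap the ends of genes on the opposite strand by at most 466 bases.

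**Figure D4:**
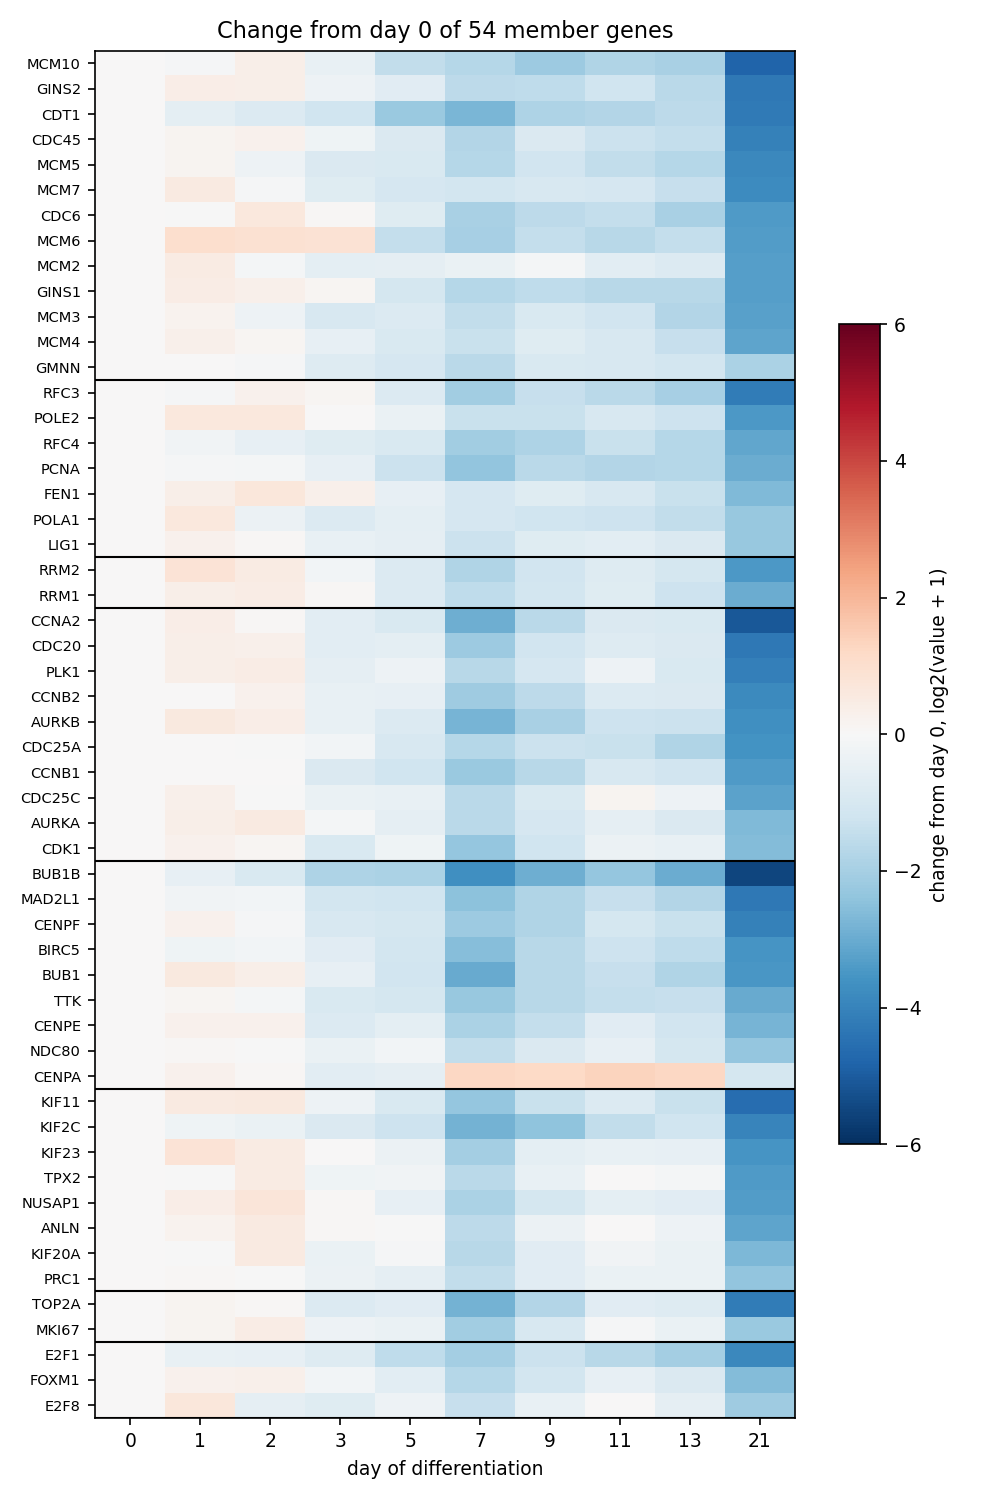
Change from day 0 in log2(value + 1), from -6 (blue) to 6 (red), for the 54 members (rows) on the 10 days (columns). Black lines separate, from the top, helicase genes, fork enzymes, ribonucleotide reductase, cyclins and kinases, checkpoint and kinetochore, kinesins and spindle, chromosome structure, and transcription factors. The column of day 7 is darker blue than its neighbours for most mitotic genes, the column of day 21 is darkest, and CENPA is the row that stays red from day 7 to day 13.

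The 3 transcription factors had unlike courses after day 9. E2F1, the activator of G1/S genes, had values of 101, 74, 72, 59, 34, 24, 41, 31, 24 and 6, with no higher level at day 11 or 13 than at day 9. FOXM1, the activator of G2 genes, had 333, 398, 414, 294, 214, 101, 157, 233, 183 and 54, and its day 11 value was 2.31-fold that of day 7. Pearson's r over the 10 libraries was 0.978 for E2F1 with the mean of the replication genes and 0.930 with that of the mitotic genes. For FOXM1 it was 0.965 and 0.990. These are descriptions of 10 points that share a time course. E2F8, a repressor of the E2F family, had only 30, 48, 20, 18, 24, 11, 22, 31, 20 and 6, too low to be counted at the limit of 50.

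Since the members of each list moved together, the promoters were read for the elements known from these gene classes. RefSeq windows on GRCh38.p14, from 250 bases before to 50 after a start, were found for 46 of the 54 members. The unmatched members were AURKA, BIRC5, E2F8, FOXM1, MCM4, MCM5, TPX2 and TTK. An E2F site was read as TTTCCCGC, TTTCGCGC, TTTGGCGC or TTTGCCGC, the cell cycle homology region (CHR) as TTTGAA or TTCGAA, and the CCAAT box as its 5 letters, each on both strands. A match is a match of letters and shows no binding.

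The letters separated the lists. An E2F site was in 14 of 27 replication windows (51.9%) and in 5 of 30 mitotic windows (16.7%), against 3.31% of all 35116 windows. The CHR was in 2 of 27 replication windows (7.41%) and 20 of 30 mitotic windows (66.7%), against 16.4% of all windows. The CCAAT box was frequent in both, with 66.7% and 76.7% against 34.6%. Some genes have several overlapping windows, so windows are not independent. Counted by gene, 14 of 20 replication genes and 4 of 25 mitotic genes had an E2F site, against 3.99% of all genes with a window. A CHR was in 2 of 20 replication genes and 18 of 25 mitotic genes, against 19.5%.

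The following 150 bases before the start of 3 replication genes and 3 mitotic genes are shown because they hold these elements. They read 5′ to 3′ along the gene, and capitals mark each E2F site, CHR and CCAAT box. In the replication promoters the capitals are E2F sites and, for MCM6 and PCNA, CCAAT boxes read on either strand. The MCM6 window also holds a CHR, at position -246 from the start, which lies outside the 150 bases shown. The stretches are chr2:135876444-135876593 (minus strand) for MCM6, chr20:5126623-5126772 (minus) for PCNA and chr16:88803639-88803788 (plus) for CDT1. In MCM6 an E2F match on each strand meets in 1 stretch, so that a pair of matches overlap, and the capitals at the 5′ end belong to a match read on the minus strand.
MCM6: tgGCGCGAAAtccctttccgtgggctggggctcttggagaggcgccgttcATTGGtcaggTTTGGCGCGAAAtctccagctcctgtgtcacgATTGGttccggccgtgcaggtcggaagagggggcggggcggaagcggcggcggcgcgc
PCNA: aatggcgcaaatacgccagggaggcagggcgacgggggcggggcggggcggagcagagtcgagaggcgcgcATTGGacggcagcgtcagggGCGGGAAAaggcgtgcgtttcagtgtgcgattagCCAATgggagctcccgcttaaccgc
CDT1: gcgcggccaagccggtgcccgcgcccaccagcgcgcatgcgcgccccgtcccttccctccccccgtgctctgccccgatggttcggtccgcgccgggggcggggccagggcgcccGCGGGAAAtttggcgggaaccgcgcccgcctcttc

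The mitotic stretches are chr15:59104996-59105145 for CCNB2, chr16:23678739-23678888 for PLK1 and chr1:43358831-43358980 for CDC20, all on the plus strand. Their capitals are CCAAT boxes and the CHR letters TTTGAA, with no E2F site among them.
CCNB2: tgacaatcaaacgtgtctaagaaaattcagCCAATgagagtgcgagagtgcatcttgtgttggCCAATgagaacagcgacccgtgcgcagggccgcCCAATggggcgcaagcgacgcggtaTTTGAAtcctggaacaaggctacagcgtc
PLK1: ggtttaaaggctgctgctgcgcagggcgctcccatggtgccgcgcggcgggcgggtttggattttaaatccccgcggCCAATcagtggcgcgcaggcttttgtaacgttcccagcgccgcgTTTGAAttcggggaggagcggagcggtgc
CDC20: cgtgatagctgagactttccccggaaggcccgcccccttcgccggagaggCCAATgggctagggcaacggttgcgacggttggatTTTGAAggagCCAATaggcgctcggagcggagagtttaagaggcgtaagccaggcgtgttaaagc

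In CCNB2 and PLK1 the CHR begins 29 bases before the start, and in CDC20 65 bases before it. PLK1, the Polo kinase, had values of 278, 86, 224 and 15 on days 0, 7, 11 and 21, and the cyclin gene CCNB2 had 225, 50, 125 and 15.

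Read by motif in place of list, the 16 members with a CHR and no E2F site had, between days 7 and 11, a median log2 change of 1.39, ranging between 0.78 and 2.16. The 15 members with an E2F site and no CHR had 0.38, between -0.24 and 0.98. These sets largely repeat the lists, with 15 mitotic genes in the first and 13 replication genes in the second. Within the mitotic list the medians were 1.39 for 18 genes with a CHR as read here and 1.35 for 7 without. Other spellings of the CHR were not searched, so this split cannot show whether the element mattered. The 6 mitotic genes without a match to either motif, AURKB, CCNA2, CCNB1, CENPE, KIF20A and KIF2C, were also 2-fold higher at day 11. Of all genes, 6.2% were 2-fold higher from day 7 to day 11.

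By their medians between days 0 and 21 and days 7 and 11, other genes of both processes went the same way to a lesser degree. They came from longer lists that leave the members out. Of 40 other replication genes, all found, 34 of 39 tested were 2-fold lower between days 0 and 21, with a median of -2.02. Of 53 other mitotic genes 46 of 49 were, with a median of -2.81, against 26.5% of all genes. From day 7 to day 11, 3 of 32 other replication genes (9.38%) and 24 of 42 other mitotic genes (57.1%) were 2-fold higher. Of all genes 6.2% were, so the replication share was near that of all genes. The medians were 0.33 and 1.01. The largest differences from day 0 to day 21 were those of DSCC1 (-5.01) and CHAF1A (-4.80) among the first, and of DLGAP5 (-6.66) and PTTG1 (-5.03) among the second. TOPBP1, a checkpoint adaptor at the fork (0.71), and MIS12, of the kinetochore (0.22), were the only genes of these lists with a higher value at day 21. For comparison, 14 of 15 constitutive genes found in the table had medians of -0.59 for days 0 and 21 and 0.11 for days 7 and 11. They were not all steady. Between days 0 and 21, 5 of 13 tested were 2-fold lower, against 26.5% of all genes, and 1 was higher, against 23.9%. GAPDH was farthest down (-3.11) and B2M farthest up (2.76). At day 0 GAPDH and ACTB stood at 18734, the highest value of every library, so the sizes of their differences are uncertain.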

How the data were processed

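RNA was sequenced from H1 cells on 10 days, with 1 library per day and no replicates. Reads were aligned by the authors to an Ensembl transcriptome with Bowtie2 2.2.0, quantified with RSEM 1.2.17 and GC-normalized with EDASeq. The notes of the submitters name the builds hg19 and mm10 without their role, so gene intervals carry the coordinates of the table with no build. The deposited values are scores, rounded by the authors to whole numbers: once the 100 highest genes are set aside, values of equal rank differ between libraries by no more than 151. The depth of each library is not given in the sources used here, which state an average over samples, a test on counts could not be used, and no interval is given.

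Columns were matched to days by name. Changes were computed with Python 3.11.15, numpy 2.4.6 and pandas 2.3.3 as differences of log2(value + 1), counted from 2-fold with a larger value of at least 50, beside all genes of the table. Figures were drawn with matplotlib 3.10.9. The code was tested on simulated data.

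Members and lists were chosen with earlier results of these data known. Values on every day are given for the 3 largest and the smallest differences from day 0 to day 21 in each list, the 3 transcription factors and 6 usual proliferation markers. Members that differed from their list were named after their values were seen, as were the examples of promoters and those at the ends of each step. Alternatives were other pseudocounts, scaling, filters, summaries and neighbouring libraries.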

Additional observations from a re-analysis of the deposited data

How the results depend on the processing

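No paired analysis was possible because each day has 1 library. The medians over all members and the differences between the mitotic and replication medians moved by less than 0.2 on the log2 scale with a pseudocount of 0.1 or 5, median-of-ratios scaling, a minimum value of 50, the mean in place of the median, CDC25A counted with the replication genes, or CENPA left out. No member was among the 100 highest genes of a library, so leaving such genes out removed none. Scaling shifted the changes of all genes between days 0 and 21 by 0.19 at the median, which was then 0.06.

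The choice of library mattered more, and the cause was not tested. The pair of days 7 and 11, day 9 in place of day 7 and the removal of CENPA were chosen after seeing the data. The median of the members from day 0 to day 3, -0.47, was 0.11 with day 2 for day 3. From day 3 to day 7 it was -1.40, but -0.28 with day 5 and -0.77 with day 9 for day 7, and the mitotic minus replication difference went from -0.20 to 0.44 and 0.29. From day 7 to day 13 the median of 0.75 became 1.05 with day 11 for day 13 and 0.07 with day 9 for day 7, where the difference of 1.13 became 0.47. From day 7 to day 11 the median of 1.05 was 0.37, and the difference of 0.97 was 0.55, with day 9 for day 7. From day 13 to day 21 the difference of -0.70 was -0.28 with day 11 for day 13.

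Counts moved with the limits. With a larger value of at least 200, members 2-fold lower from day 3 to day 7 went from 42 to 20 and from day 13 to day 21 from 44 to 12, and members 2-fold higher went from 19 to 7 from day 7 to day 13 and from 27 to 12 from day 7 to day 11, since fewer members were tested. At 4-fold these counts were 9, 26, 2 and 3. The 3 members lower from day 0 to day 3 were 0 at 4-fold, and the 1 higher from day 3 to day 7 was 0 under either limit. A low average depth, not known for each library, and single libraries limit all values, most of all those of low genes such as E2F8 and POLE2.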

Other observations

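Among genes outside the list, the 10 whose log2 profile over the 10 libraries was most like the mean of the members were TUBA1B, NCAPH, FANCA, ARHGAP11A, TRAIP, OIP5, CDCA5, FAM83D, SLC6A15 and ASF1B, with Pearson's r between 0.990 and 0.996. Of these, 3 (NCAPH, CDCA5 and ASF1B) stood in the lists of other replication and mitotic genes. Absence from those lists does not show that a gene lies outside the cell cycle. SLC6A15, an amino acid transporter, had values of 149, 7 and 26 on days 0, 7 and 11 and was listed at 0 on day 21. TUBA1B, an alpha-tubulin, had 6493, 2020, 3428 and 956 on these days.

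Of 16 other transcription factors of the cell cycle, 14 were found. E2F7, a repressor, had 86, 20 and 13 on days 0, 7 and 11 and was listed at 0 on day 21. MYBL2, the gene of B-MYB, had 412, 226, 414 and 41. The pocket protein genes, which hold back E2F factors, did not move as 1 group. RB1 had 100 and 207 on days 0 and 21 and RBL2 had 96 and 162. RBL1 was lower at the end, with 32 and 12, below the limit of 50. Of the 10 tested between days 0 and 21, 6 were 2-fold lower, against 26.5% of all genes. The 1 that was 2-fold higher was RB1, against 23.9% of all genes.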
